A study of Homo sapiens with 6 samples.

Results

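The mitochondrial genome holds 37 genes, and all 37 were found among the 58884 rows of the expression table by a symbol that starts with MT-. They comprise 13 protein genes, the 2 ribosomal RNA genes and 22 transfer RNA genes, and these classes were analysed apart. Expression was measured by RNA sequencing of total RNA in 6 libraries of 3 human thyroid carcinoma cell lines. The anaplastic carcinoma lines are BHT-101 and 8505C, and the follicular carcinoma line is FTC-133. Cells of BHT-101 and FTC-133 carried either a control siRNA (siControl) or an siRNA against CRABP2 (siCRABP2), and 8505C cells carried either an empty vector or a CRABP2 vector. CRABP2 binds retinoic acid in the cytosol and passes it to nuclear receptors. With 1 library for each of the 6 conditions, differences between the libraries of a line cannot be set against replicate spread. The sources used here do not give whether the 8505C vector cultures were clones or pools.

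Mitochondrial DNA is a small circle that is transcribed from both strands into long precursors which cover many genes. Transfer RNA genes lie between most of the protein and ribosomal RNA genes, and their excision frees the messenger and ribosomal RNAs. The proteins are core subunits of complexes I, III, IV and V of the respiratory chain, and the ribosomal and transfer RNAs serve the mitochondrial ribosome that makes them. All other parts, including the polymerase POLRMT and the transcription factors TFAM and TFB2M, come from nuclear genes. Of the 37 genes, 28 are of the heavy strand and 9 of the light strand, which carries MT-ND6 and 8 transfer RNA genes.

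Values are FPKM, which scale reads to full exon length and library depth, so levels of protein and ribosomal RNA genes can be set side by side. Transfer RNA genes are shorter than most sequencing fragments, so setting their FPKM against longer genes is uncertain. Depth, worked back from FPKM and exon length, was 22084110 to 27958622 reads per library, and all 37 genes gave whole reads in every library at a tolerance of 0.001 reads. CRABP2 checked the labels: it was lower with siCRABP2 than with siControl in BHT-101 (11.4 against 27.3 FPKM) and in FTC-133 (0.170 against 8.94), and higher with the CRABP2 vector than with the empty vector in 8505C (38.04 against 0.607). Of the thyroid follicular markers, PAX8 and NKX2-1 were above 1 FPKM in both FTC-133 libraries, and NKX2-1 but not PAX8 was in both 8505C libraries. Neither reached 1 FPKM in BHT-101. TG, the thyroglobulin gene, and SLC5A5, which imports iodide, stayed below 0.05 FPKM in all 6 libraries. The 4 blood markers stayed below 0.16 FPKM. The 3 fibroblast markers (COL1A1, COL3A1 and DCN) summed to 1.74 and 0.994 FPKM in BHT-101, 41.3 and 24.9 in FTC-133, and 3.37 and 0.909 in 8505C, with COL1A1 at 39.6 and 24.1 in FTC-133 and below 0.05 in 8505C. This sum was lower in the treated library of each line, as were the mitochondrial protein genes. DCN itself was higher in treated BHT-101 (0.0321 against 0.0057) and FTC-133 (0.097 against 0.058). In the same order, the epithelial markers (KRT8, KRT18, EPCAM and CDH1) summed to 408.6 and 425.6, 54.1 and 52.6, and 147.8 and 234.8 FPKM. The endothelial markers (PECAM1, VWF and CDH5) summed to 0.930 and 1.08, 0.482 and 0.363, and 2.89 and 3.20. The part of any marker list in the differences of the mitochondrial genes was not tested. Throughout, 2 values for a line are given as siControl then siCRABP2, or as empty vector then CRABP2 vector.

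The classes did not move in step. Protein genes took 4.90% and 4.16% of all reads in BHT-101, 2.97% and 1.97% in FTC-133, and 2.03% and 1.13% in 8505C. Ribosomal RNA genes took 0.487% and 0.530% in BHT-101, 0.703% and 0.886% in FTC-133, and 0.631% and 0.458% in 8505C. The treated library was thus lower than its control for protein genes in each line, and for ribosomal RNA in 8505C but not in BHT-101 or FTC-133. Transfer RNA genes took between 0.0203% and 0.0430%. Within the reads of the mitochondrial genome, the protein share was 90.2% and 87.9% in BHT-101, 80.3% and 68.2% in FTC-133, and 75.6% and 70.2% in 8505C. For all 37 genes together, the share of reads was 5.43% and 4.73%, 3.69% and 2.88%, and 2.68% and 1.61%. The 95% exact (Clopper-Pearson) interval of the last, from 1.60% to 1.61%, shows how narrow counting error is here. Such intervals cover counting error only and say nothing of culture-to-culture spread. In bulk RNA, fewer mitochondrial genomes, less transcription and faster decay cannot be told apart.

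**Figure D1:**
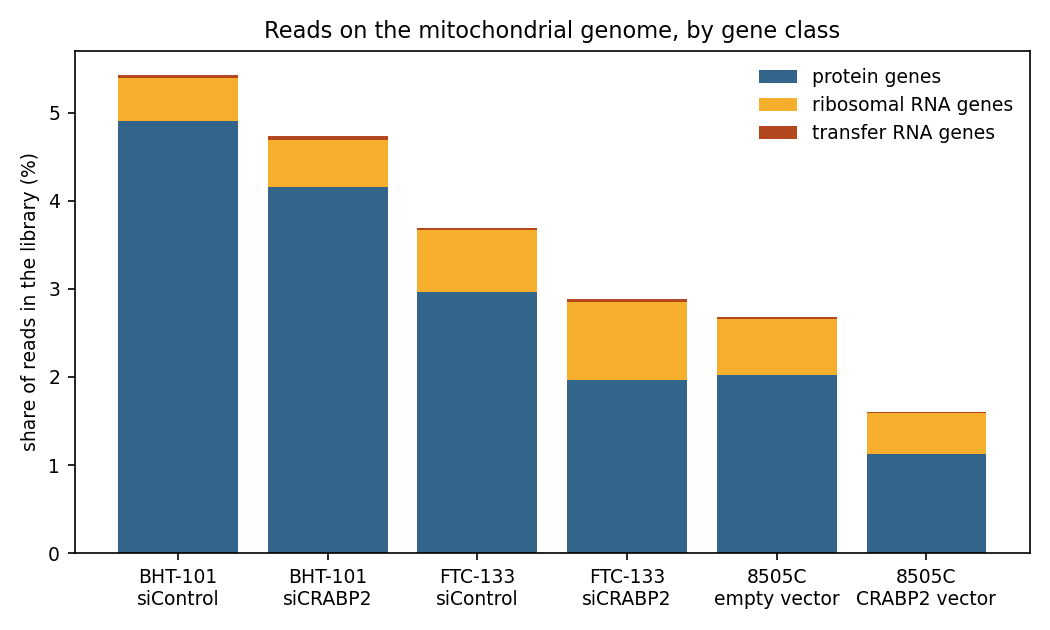
Share of the reads of each library (y axis, percent) on protein, ribosomal RNA and transfer RNA genes of the mitochondrial genome, stacked, for the 6 libraries (x axis). The total is 5.43% in BHT-101 siControl and 1.61% in 8505C with the CRABP2 vector, while the ribosomal RNA part is widest in FTC-133 siCRABP2 at 0.886%.

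The 3 complex IV genes held the 3 most abundant messenger RNAs in 5 of the 6 libraries, all but FTC-133 siCRABP2. They encode the catalytic core of cytochrome c oxidase, which passes electrons to oxygen. MT-CO1 (chrM:5904-7445), the subunit with the oxygen-reducing centre, had 9762 and 8452 FPKM in BHT-101, 5753 and 3748 in FTC-133, and 3555 and 1949.8 in 8505C. MT-CO2 (chrM:7586-8269), which receives electrons from cytochrome c, had 11252 and 9886, 8438 and 5779, and 2564 and 1486 FPKM. MT-CO3 (chrM:9207-9990), the remaining core subunit, had 8779.6 and 7099.7, 3768 and 1661, and 3345 and 2228 FPKM. MT-CO2 stood first of the 13 protein genes in the 4 libraries of BHT-101 and FTC-133 but in rank 3 in both libraries of 8505C. The 3 genes together gave between 44.7% (8505C empty vector) and 56.0% (BHT-101 siCRABP2) of the summed FPKM of the protein genes. MT-CO3 held rank 3 in FTC-133 siControl and rank 6 in FTC-133 siCRABP2, where its share of that sum was 11.5% and 7.66%.

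Complex I takes electrons from NADH, and 7 subunits of its proton-pumping membrane arm are encoded here. MT-ND1 (chrM:3307-4262), which lines the ubiquinone site, had 2907 and 2291 FPKM in BHT-101, 1024 and 556 in FTC-133, and 1774 and 772 in 8505C. MT-ND2 (chrM:4470-5511), an antiporter-like subunit, had 2066 and 1722, 1064 and 621, and 719.8 and 350.5 FPKM. Both genes were lower in the treated library of each line, and MT-ND1 was the only one of these 7 whose lowest level lay in FTC-133 siCRABP2.
MT-ND3 (chrM:10059-10404), a small membrane subunit, had 3623 and 3074, 1517 and 1238, and 877 and 638 FPKM. MT-ND4L (chrM:10470-10766) had 2238 and 2024, 2123 and 1749.7, and 1102 and 562 FPKM. MT-ND4 (chrM:10760-12137), another antiporter-like subunit, had 3251 and 2818, 2191 and 2044, and 2063 and 1109 FPKM. These 3 genes follow each other on the heavy strand. With siCRABP2, their depth-scaled reads were 81.6%, 82.4% and 93.3% of control in FTC-133, and 84.8%, 90.5% and 86.7% in BHT-101. MT-ND6, of the light strand, was at 92.0% in FTC-133. In that line MT-ND4 was in rank 5 of the protein genes with siControl and rank 3 with siCRABP2.
MT-ND5 (chrM:12337-14148), the farthest of the pumping subunits, had 1048 and 909, 812 and 612, and 651 and 344 FPKM. MT-ND6 (chrM:14149-14673), the sole protein gene of the light strand, had 1566 and 1311, 881 and 810.3, and 593 and 336 FPKM. Complex I genes made up 29.3% of the summed protein FPKM in FTC-133 siControl and 35.2% with siCRABP2, 31.1% in both BHT-101 libraries, and 36.8% and 34.4% in 8505C. The share was thus higher in the treated library in FTC-133 and lower in 8505C.

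MT-CYB (chrM:14747-15887) encodes cytochrome b of complex III, which oxidises ubiquinol. It had 2035 and 1673 FPKM in BHT-101, 1462 and 787 in FTC-133, and 1242 and 735 in 8505C. The complex V genes encode membrane subunits of the ATP synthase. MT-ATP6 (chrM:8527-9207), part of the proton channel, had 4085 and 3352, 2999.9 and 1733, and 2168 and 1157 FPKM. MT-ATP8 (chrM:8366-8572) was the lowest of the 13 protein genes in all 6 libraries, with 1031 and 834, 751 and 341, and 515 and 268 FPKM. These 2 genes share 46 bases, in which the start codon of MT-ATP6 and the stop codon of MT-ATP8 lie at the ends. The shared stretch is shown because reads on it fit both genes, with these codons in capitals (GENCODE release 29 transcripts, GRCh38, chrM:8527-8572, heavy-strand genes, 5′ to 3′):
MT-ATP8/MT-ATP6 overlap: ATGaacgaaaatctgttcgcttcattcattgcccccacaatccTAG
The sources used here do not say how reads touching both genes were counted, so the levels of MT-ATP8 (207 bases long) and of MT-ND4L, which shares 7 bases with MT-ND4, are uncertain.

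**Figure D2:**
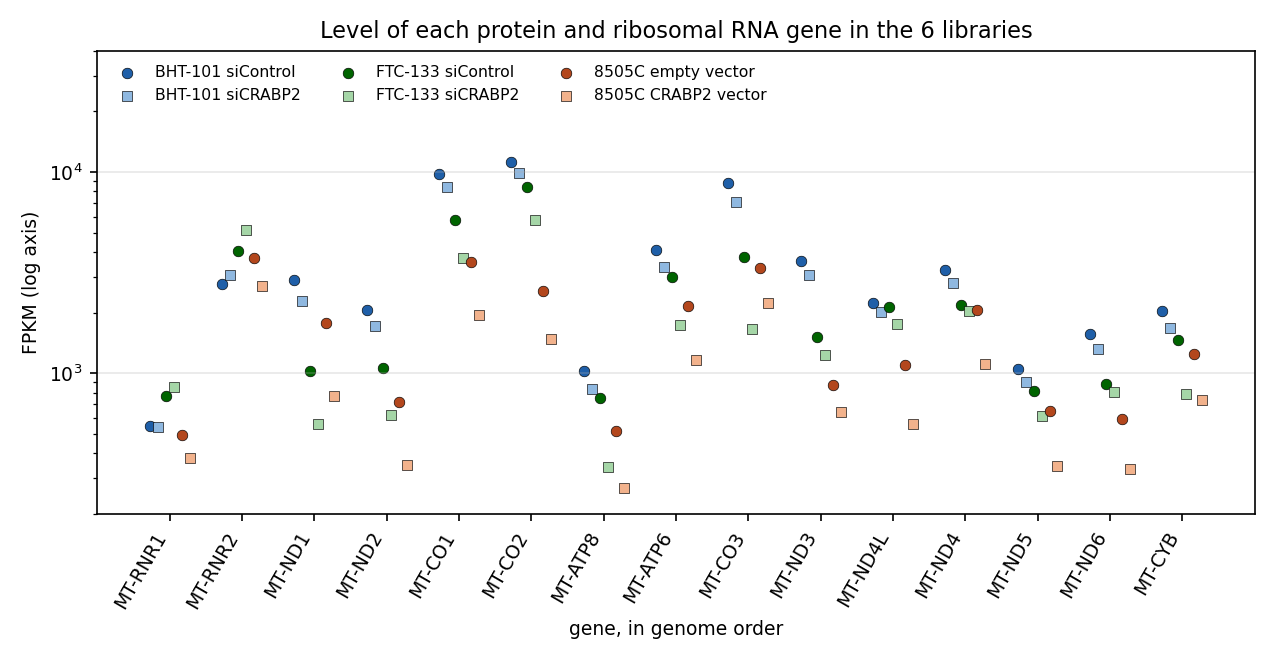
FPKM (y axis, log scale) of the 2 ribosomal RNA and 13 protein genes in genome order (x axis), with 1 point per library and a colour per line, circles for control and squares for treated libraries. All 13 protein genes have the square below the circle in each line, and MT-ATP8 is the lowest protein gene in each library.

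Within each line, the difference was taken on log2(FPKM + 1) as treated minus control, and genes with at least 1 FPKM in 1 or both libraries were measured. In BHT-101 the protein genes were lower with siCRABP2 by a narrow range, from -0.34 (MT-ND1) to -0.14 (MT-ND4L), with a median of -0.26 against 0.01 for all 12055 measured genes. All 13 lay below 0, where 46.7% of measured genes did, and 0 of 13 were at least 1 lower (0.539% of measured genes were). Their pooled reads were 84.9% of control after scaling for depth. Under quantile normalization 8 of the 13 remained below 0 and none lay above 0, since the other 5 held the same rank in both libraries.

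In FTC-133 the protein genes moved unevenly. The median was -0.62, against -0.04 for all 12832 measured genes, and all 13 lay below 0 (53.9% of measured genes did). MT-CO3 (-1.18) and MT-ATP8 (-1.14) were at least 1 lower, 2 of 13, where 2.35% of measured genes were. MT-CYB (-0.89), MT-ND1 (-0.88), MT-ATP6 (-0.79) and MT-ND2 (-0.78) came next. At the other end stood MT-ND4 (-0.10), MT-ND6 (-0.12), MT-ND4L (-0.28) and MT-ND3 (-0.29). For these extremes the 95% exact counting interval of the log2 read ratio ran from -1.20 to -1.16 for MT-CO3 and from -0.11 to -0.08 for MT-ND4. With 1 library per condition, the spread among genes has no replicate error to be set against. Complex by complex, pooled reads with siCRABP2 were 79.0% of control for complex I, 53.8% for complex III, 62.7% for complex IV and 56.9% for complex V.

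In 8505C the median was -0.89, against 0.02 for all 11731 measured genes, with all 13 below 0 (47.2% of measured genes). MT-ND1 (-1.20) and MT-ND2 (-1.04) were at least 1 lower, 2 of 13 against 1.86% of measured genes, and MT-ND4L (-0.97) and MT-ATP8 (-0.94) followed. MT-ND3 (-0.46) and MT-CO3 (-0.59) were the least lowered. MT-CO3 was thus the most lowered protein gene in FTC-133 and among the least in 8505C, while MT-ND3 was among the least lowered in both. Under quantile normalization MT-CO3 in 8505C turned to 0.13, and the other 12 stayed below 0. Pooled protein reads with the CRABP2 vector were 55.6% of those with the empty vector.

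The protein genes were therefore lower both in the libraries with less CRABP2 (the knockdowns) and in the library with more CRABP2 (the 8505C vector). Scaling to the reads outside the mitochondrial genome left all 13 below 0 in each line.

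The ribosomal RNA genes lie at the front of the heavy-strand precursor. MT-RNR1 (chrM:648-1601), the RNA of the small mitochondrial ribosomal subunit, had 545 and 541 FPKM in BHT-101, 769 and 853 in FTC-133, and 494 and 377 in 8505C. MT-RNR2 (chrM:1671-3229), the RNA of the large subunit, had 2788 and 3070.0, 4039 and 5160.1, and 3744 and 2708 FPKM. Both were higher with siCRABP2 in FTC-133 and lower with the CRABP2 vector in 8505C, while in BHT-101 MT-RNR1 was nearly level. The differences in MT-RNR2 were 0.14 in BHT-101, 0.35 in FTC-133 and -0.47 in 8505C, and in MT-RNR1 they were -0.01, 0.15 and -0.39. Of measured genes, 53.3% lay above 0 in BHT-101, 46.1% in FTC-133 and 52.8% in 8505C, so a positive sign alone was common. Under quantile normalization MT-RNR2 in 8505C came to 0, and the other signs held. Pooled reads of both genes were 109% of control in BHT-101, 126% in FTC-133 and 72.6% in 8505C.

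Set against each other per length, the median FPKM of the protein genes was 1.74 and 1.27 times the mean FPKM of the ribosomal RNA genes in BHT-101. The ratio was 0.631 and 0.412 in FTC-133, and 0.586 and 0.476 in 8505C. It was lower in the treated library of each line, and both BHT-101 libraries lay above the other 4. The sources used here do not say whether ribosomal RNA was removed or polyadenylated RNA selected, and either step would change the level of MT-RNR1 and MT-RNR2 relative to messenger RNA.

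**Figure D3:**
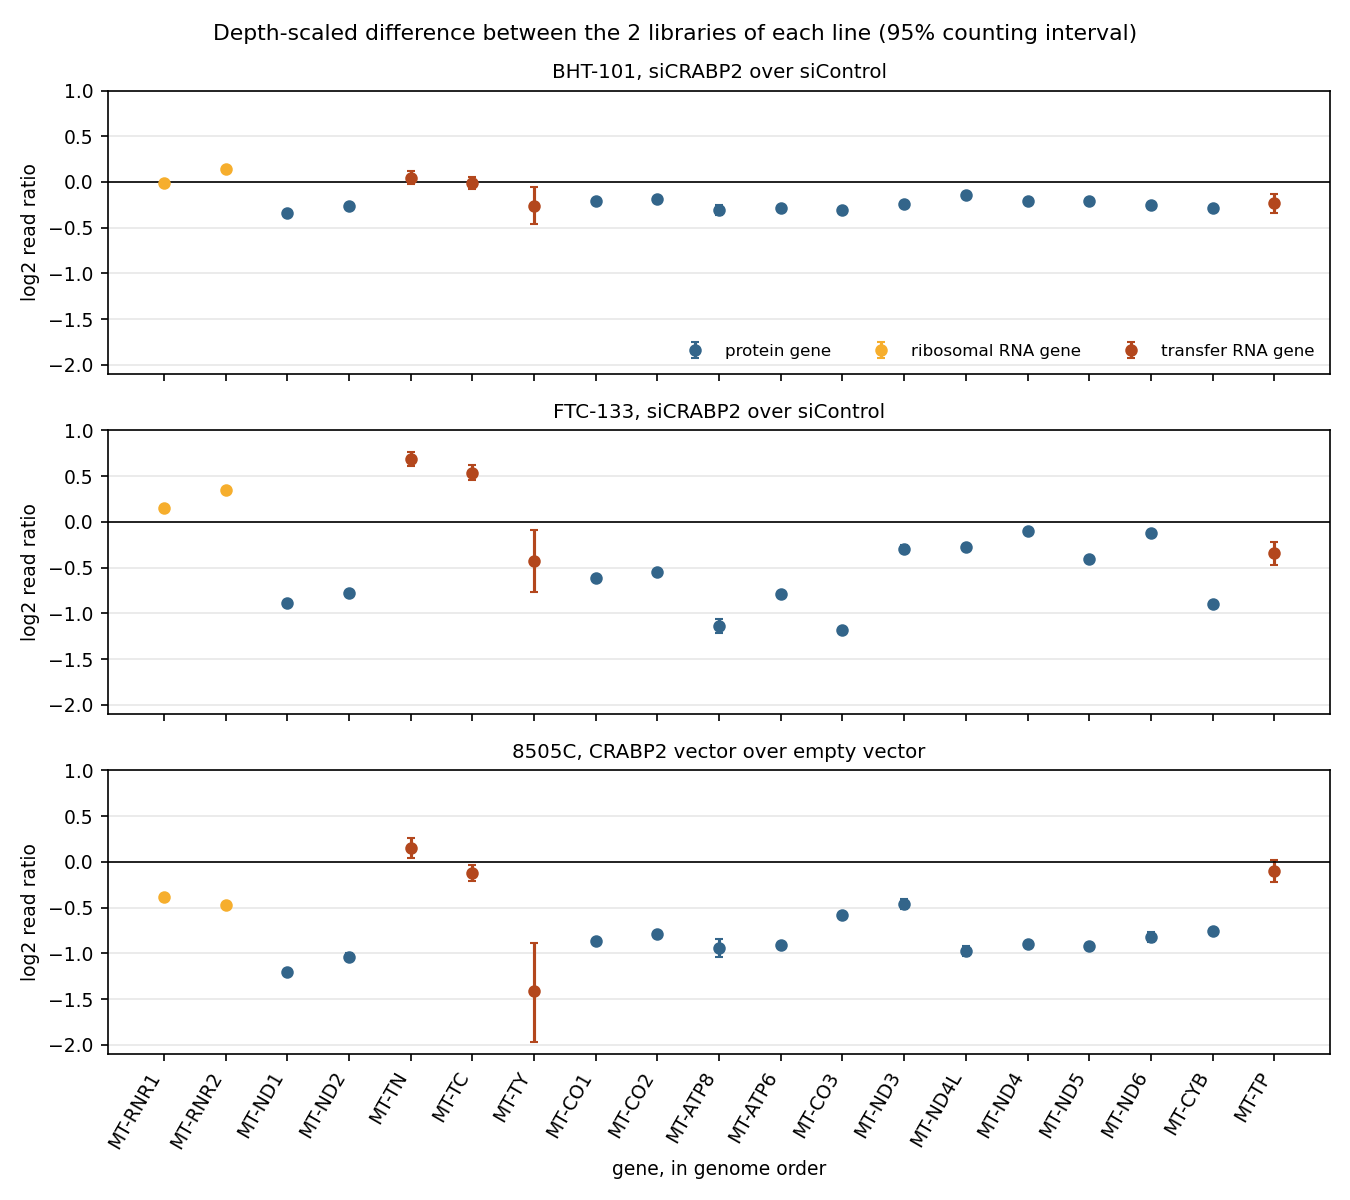
Depth-scaled log2 ratio of reads, treated over control (y axis), for the ribosomal RNA and protein genes and the 4 most abundant transfer RNA genes in genome order (x axis), with a panel for each line and bars for the 95% exact counting interval. Protein genes lie below 0 in each panel, closely packed in BHT-101 and spread from -1.18 to -0.10 in FTC-133, where MT-RNR1, MT-RNR2, MT-TN and MT-TC lie above 0.

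Transfer RNA genes, which are short and carry an amino acid to the ribosome once excised, were read thinly except for 3. MT-TN (asparagine), MT-TC (cysteine) and MT-TP (proline) held between 86.8% and 96.2% of all transfer RNA reads in each library. This group was singled out after its values were seen. MT-TN had 1938 and 2004 FPKM in BHT-101, 1133 and 1829 in FTC-133, and 731 and 813 in 8505C. MT-TC had 2514 and 2489.7, 1225 and 1779, and 1445 and 1326 FPKM. MT-TP had 986 and 839.9, 645 and 508, and 758 and 709 FPKM. In each library MT-TN and MT-TC lay within the FPKM range of the 13 messenger RNAs, a comparison that is uncertain for genes this short. All 3 genes are of the light strand, and they are shown with MT-TA (alanine) and MT-TY (tyrosine), which flank MT-TN and MT-TC and were read far less. Each is given 5′ to 3′ as the gene is read, minus strand, with the anticodon in capitals (GENCODE release 29 transcripts, GRCh38).
MT-TN, chrM:5657-5729: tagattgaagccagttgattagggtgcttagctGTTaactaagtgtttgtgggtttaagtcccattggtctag
MT-TC, chrM:5761-5826: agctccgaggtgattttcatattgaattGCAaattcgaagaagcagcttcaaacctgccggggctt
MT-TP, chrM:15956-16023: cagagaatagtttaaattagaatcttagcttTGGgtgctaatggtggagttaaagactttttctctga
MT-TA, chrM:5587-5655: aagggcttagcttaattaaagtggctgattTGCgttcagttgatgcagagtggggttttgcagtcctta
MT-TY, chrM:5826-5891: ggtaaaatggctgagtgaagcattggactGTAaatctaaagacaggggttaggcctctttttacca

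MT-TN and MT-TC border a stretch of 31 bases between them (chrM:5730-5760) that holds no gene and is known as the origin of light-strand replication. MT-TP borders the non-coding control region. MT-TF (phenylalanine; chrM:577-647), which borders the control region on its other side, had only 0.616 to 4.53 FPKM. MT-TA, separated from MT-TN by 1 base, had 0 to 2.54 FPKM, from at most 4 reads in a library. MT-TY, which shares 1 base with MT-TC, had 272 and 227 FPKM in BHT-101, 100.1 and 74.7 in FTC-133, and 74.9 and 28.1 in 8505C. The other light-strand transfer RNA genes were low: MT-TQ (glutamine) and MT-TS1 (serine) had at most 7 reads in a library, and MT-TE (glutamate) had 3.94 to 26.95 FPKM. No source used here says whether counting used strand, and reads of a light-strand gene and of heavy-strand RNA over the same bases then cannot be told apart. The size range of fragments kept in library preparation is likewise not given, and mature transfer RNAs are shorter than most RNA sequencing fragments.

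MT-TN and MT-TC did not follow the protein genes. In FTC-133 the log2 read ratio was 0.69 for MT-TN (95% exact counting interval 0.61 to 0.77) and 0.54 for MT-TC (0.46 to 0.62). In BHT-101 their intervals hold 0, with ratios of 0.05 and -0.01. In 8505C MT-TN was 0.15 (0.04 to 0.27) and MT-TC -0.12 (-0.21 to -0.03). MT-TP gave -0.23, -0.34 and -0.10 in BHT-101, FTC-133 and 8505C.

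The pooled reads of the other 19 transfer RNA genes, scaled for depth, were 74.0% of control in BHT-101, 43.8% in FTC-133 and 34.7% in 8505C. Of these 19 genes, 14, 18 and 16 were lower, beside 46.7%, 53.9% and 47.2% of all measured genes. The 2 sides follow unlike rules: these counts use depth-scaled reads with no filter, the shares log2(FPKM + 1) among measured genes. In FTC-133, MT-TQ (1 and 0 reads) and MT-TK (1 and 1) were counted as lower though not measured. The split of the 19 genes from MT-TN, MT-TC and MT-TP follows the group singled out by its values and was not tested. A few genes carry the pool: MT-TL1, MT-TY and MT-TH had 447, 502 and 225 of its 1558 reads in BHT-101 siControl. In BHT-101, MT-TY (log2 read ratio -0.26) lay close to MT-TP (-0.23). On log2(FPKM + 1) the median over all measured transfer RNA genes was -0.33 in BHT-101 (22 measured), -1.11 in FTC-133 (20 measured) and -1.35 in 8505C (22 measured). With genes at 0 reads in 1 library set to a floor of 3 reads, or left out where both libraries were at or under it, these medians were -0.33, -1.11 and -1.05. At least 1 lower were 2, 11 and 13 transfer RNA genes, beside 0.539% of measured genes in BHT-101, 2.35% in FTC-133 and 1.86% in 8505C. At least 1 higher were 2, 1 and 0, beside 0.589%, 2.36% and 1.85% of measured genes. The depth behind these counts is small: 7 and 12 of the 22 had fewer than 20 reads in BHT-101, 10 and 14 in FTC-133, and 12 and 17 in 8505C. The 95% counting interval lay wholly below 0 for 7, 11 and 10 of the 22 genes, and wholly above 0 for 0, 2 and 1. Intervals were not counted over all genes, so no background share stands beside these numbers.
MT-TL1 (leucine; chrM:3230-3304), which sits between MT-RNR2 and MT-ND1 and is the highest of the heavy-strand transfer RNAs by mean FPKM, had 213 and 129.5 FPKM in BHT-101, 80.0 and 19.1 in FTC-133, and 106 and 36.8 in 8505C. It was lower in each treated library, most of all in FTC-133 (log2 read ratio -2.07, interval -2.61 to -1.55), where its neighbours gave 0.35 (MT-RNR2) and -0.88 (MT-ND1). MT-TH (histidine; chrM:12138-12206) had 117 and 92.1, 98.1 and 33.1, and 17.1 and 3.28 FPKM. All 14 heavy-strand transfer RNA genes were, pooled, at 68.6%, 34.0% and 35.7% of control reads, and the 8 light-strand ones, whose reads are mostly those of MT-TN, MT-TC and MT-TP, at 97.5%, 136% and 95.3%. Gene by gene, the median difference on log2(FPKM + 1) was -0.66, -1.24 and -1.34 for the heavy strand and 0.02, -0.09 and -1.35 for the light strand. In 8505C 7 of the 8 light-strand genes lay below 0 and 5 were at least 1 lower, beside 47.2% and 1.86% of measured genes. The pooled value there thus does not describe most of these 8 genes.

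**Figure D4:**
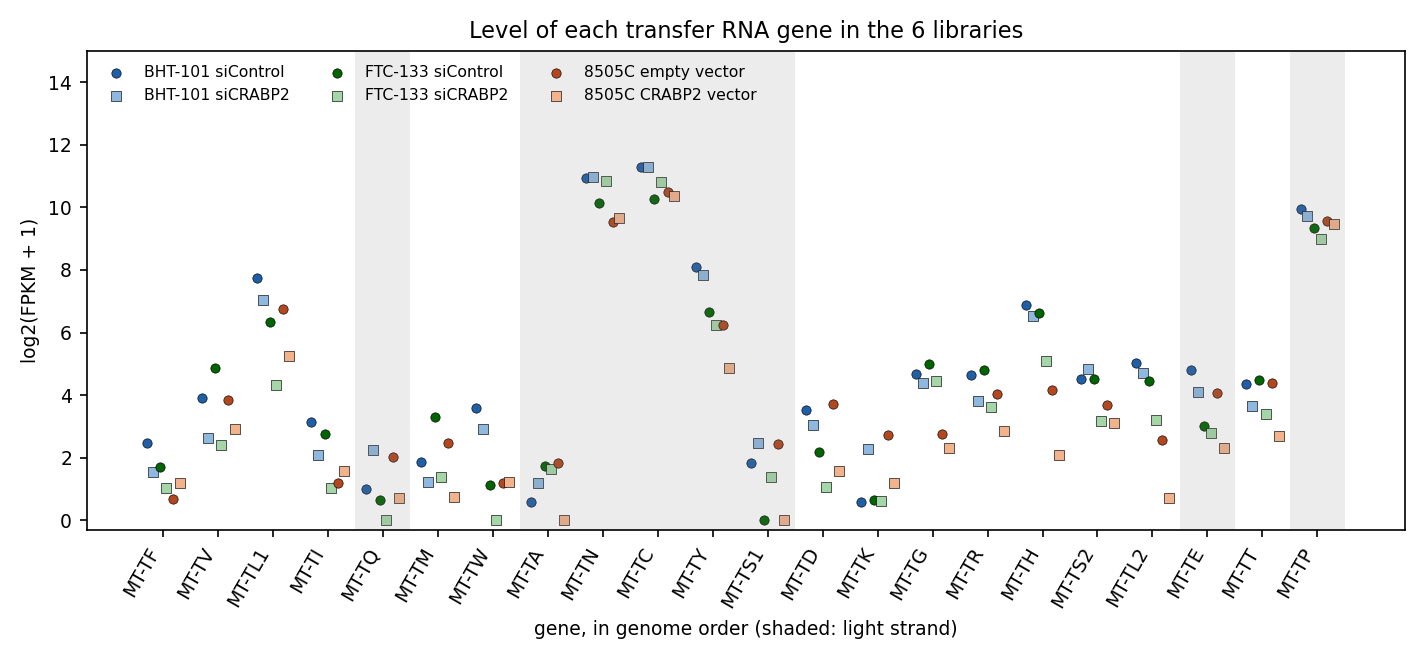
Level of the 22 transfer RNA genes as log2(FPKM + 1) (y axis) in genome order (x axis), 1 point per library, with light-strand genes shaded. MT-TN, MT-TC and MT-TP stand above the rest in each library, and MT-TA, beside MT-TN, stays at or below 2.54 FPKM.

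Over the lines, no member passed a test of the treatment. In limma (linear models across all genes, variance trend, cell line as block, Benjamini-Hochberg adjustment) on the 4 siRNA libraries, 0 of 35 members and 0 of 12953 genes passed at 0.05 in either direction (0.0% called higher and 0.0% lower). At an unadjusted p under 0.05, 19 members were lower and 1 was higher, where 1.74% of genes were lower and 2.42% higher. The 19 comprised 6 of 13 protein genes and 13 of 20 transfer RNA genes tested. Some of these transfer RNA genes rest on few reads. In BHT-101, MT-TF had 9 and 3, MT-TM 5 and 2, and MT-TI 15 and 5. In FTC-133 they had 4 and 2, 15 and 3, and 10 and 2. Among protein genes the fitted log2 difference was -0.74 for MT-CO3 (SE 0.25), -0.72 for MT-ATP8 (SE 0.23), -0.61 for MT-ND1 (SE 0.20), -0.59 for MT-CYB, -0.54 for MT-ATP6 and -0.52 for MT-ND2, each with a limma adjusted p of 0.869. MT-ND4 gave -0.15 (limma adjusted p = 0.893), MT-RNR1 0.07 and MT-RNR2 0.25. The member that was higher was MT-TS1, with 5 and 7 reads in BHT-101 and 0 and 3 in FTC-133. The fit has 1 residual degree of freedom, which limma raised to 6.13 by sharing spread across all genes. The p-values thus rest mostly on spread typical of all genes, and less on how a gene's own difference varies between the 2 lines. That variation is mixed with noise between libraries.

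With all 6 libraries, the lower CRABP2 arm (siCRABP2, empty vector) was set against the higher arm (siControl, CRABP2 vector), and 0 of 36 members and 0 of 11628 genes passed (0.0% higher, 0.0% lower; limma, 2 residual degrees of freedom). At an unadjusted p under 0.05, 3 members were higher and 3 lower, all transfer RNA genes, beside 1.66% and 1.54% of genes. The fitted differences of the protein genes ran from -0.30 to 0.20 with a median of 0.00, since their sign in 8505C opposed that in the knockdown lines. Without the 2 FTC-133 libraries, MT-TQ and MT-TK passed as higher (limma adjusted p = 0.0124 and 0.00209), on at most 9 reads in a library. MT-TQ reached 1 FPKM there only in BHT-101 siCRABP2 (3.73) and 8505C empty vector (3.04), the 2 libraries of the arm called higher. It thus met the filter only through the arm where it was high, and no conclusion is drawn from its call. MT-TQ was not among the members tested with all 6 libraries. Of all 12608 genes tested there, 6 passed as higher and 4 as lower.

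Levels also differed between the lines. Here the 2 libraries of a line, which differ in treatment, stand as its spread, in a limma fit with 3 residual degrees of freedom. Sharing of spread across all genes raised these to 6.31. BHT-101 was higher than 8505C in 20 of 37 members and lower in 0, where 32.0% of 13736 genes were higher and 30.1% lower. The 20 comprised 11 of 13 protein genes, 0 of 2 ribosomal RNA genes and 9 transfer RNA genes. Some of these transfer RNA calls rest on few reads: in 8505C, MT-TF had 1 and 2 and MT-TW 2 and 2. MT-CO2 differed most among protein genes (log2 difference 2.43, SE 0.35, limma adjusted p = 0.00141), followed by MT-ND3 (2.16, SE 0.24, adjusted p = 0.000534), MT-ND2 (1.91) and MT-CO1 (1.79). MT-ND1 (1.14, limma adjusted p = 0.0721) and MT-CYB (0.95, limma adjusted p = 0.0687) did not pass. MT-RNR1 (0.33) and MT-RNR2 (-0.12) did not pass either, with limma adjusted p = 0.183 and 0.717. These calls depend on the settings: 10 members were higher with no filter, and 9 higher and 1 lower under quantile normalization. MT-CO2 (2.08) and MT-ND3 (1.61) passed under both, MT-CO1 lost its call with no filter, MT-ND2 (1.01) lost its call under quantile normalization, and MT-TC (0.85) turned to -0.10 there.

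BHT-101 was higher than FTC-133 in 8 of 37 members, near the share of all genes (18.7%), and lower in 1, against 30.2%. The 8 were MT-ND1 (1.77, SE 0.46), MT-CO3 (1.66, SE 0.43), MT-ND3 (1.28, SE 0.24), MT-ND2 (1.21, SE 0.41), MT-TC, MT-TP, MT-TW and MT-TY. MT-TW rests on few reads, 21 and 10 in BHT-101 and 2 and 0 in FTC-133. MT-RNR1 was the gene that was lower in BHT-101 (-0.58, SE 0.19, limma adjusted p = 0.0480). FTC-133 was higher than 8505C in 9 of 37 members, a smaller share than over all genes (35.3%), and lower in 0, against 24.9%. These included MT-CO2 (1.84, SE 0.35, limma adjusted p = 0.00473), MT-ND4L (1.29), MT-ND6 (0.92), MT-ND3 (0.87), MT-RNR1 (0.91, SE 0.19, limma adjusted p = 0.00737) and MT-TN (0.90), besides MT-TG, MT-TH and MT-TL2. In 8505C, MT-TG had only 9 and 6 reads, MT-TH 27 and 5, and MT-TL2 8 and 1. MT-ND1 and MT-CO3 ran the other way between these lines without passing (-0.63 and -0.13, limma adjusted p = 0.279 and 0.823).
MT-ND3 passed in all 3 line comparisons, in the order BHT-101, FTC-133, 8505C, but its call for FTC-133 against 8505C was lost with no filter and under quantile normalization (0.64). With no filter, members called higher went from 8 to 2 in BHT-101 against FTC-133 and from 9 to 3 in FTC-133 against 8505C, and the lower call of MT-RNR1 in BHT-101 was lost. Under quantile normalization 4 members were higher and 2 lower in BHT-101 against FTC-133. Under quantile normalization the calls in FTC-133 against 8505C over all genes changed from 58.7% higher to 48.3% higher, and the members called higher from 9 to 5. The median over all genes moved from -0.16 to -0.04 in BHT-101 against FTC-133 and from 0.13 to -0.03 in FTC-133 against 8505C.

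Nuclear copies of mitochondrial genes bear on these levels, because a read from a near-identical copy can be counted in either place. A block of copies lies on chromosome 1 (MTND1P23, MTND2P28, MTCO1P12 and MTATP6P1, between chr1:629062 and chr1:634376, GRCh38). MTND2P28 had 352 and 169 FPKM in 8505C but 5.89 and 6.05 in BHT-101 and 3.36 and 1.83 in FTC-133. It held 32.9% and 32.6% of the reads of the pair with MT-ND2 in 8505C and at most 0.350% in each of the other 4 libraries. MTATP6P1 held 10.9% to 19.2% of the reads of the pair with MT-ATP6 in all 6 libraries. With the copy's reads added, the log2 read ratio in 8505C was -1.05 for MT-ND2 (-1.04 without) and -0.92 for MT-ATP6 (-0.91 without), so the differences within the line barely moved. The level of MT-ND2 in 8505C relative to other lines depends on where such reads were placed, and its part in the line comparison was not tested.

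Nuclear genes that act on the mitochondrial genome were counted by the same rule. Of 24 genes of mitochondrial transcription and genome maintenance, 0 of 24 in BHT-101, 1 of 24 in FTC-133 and 0 of 23 in 8505C differed by at least 1, with medians of 0.02, -0.14 and 0.16. Over all measured genes 0.589%, 2.36% and 1.85% were at least 1 higher and 0.539%, 2.35% and 1.86% at least 1 lower, so in lists of this size a count of 0 or 1 is near the background. The gene past the size rule was TK2, the mitochondrial thymidine kinase that supplies nucleotides for mitochondrial DNA, with 6.71 and 2.03 FPKM in FTC-133 (-1.35). POLG, the catalytic subunit of the mitochondrial DNA polymerase, had 7.68 and 15.1 FPKM in FTC-133 (0.89). TFAM, which packages mitochondrial DNA and starts its transcription, had 13.9 and 14.8 FPKM in BHT-101, 22.6 and 16.8 in FTC-133 (-0.41), and 21.4 and 24.0 in 8505C. POLRMT had 29.1 and 28.97, 24.9 and 31.1, and 6.72 and 9.05 FPKM, and TFB2M differed by -0.06, -0.03 and 0.23. In 8505C, TFAM (0.16), POLRMT (0.38) and TFB2M (0.23) were each higher with the CRABP2 vector. So were 18 of the 23 genes of this list measured there, beside 52.8% of all measured genes. A link between these factors and the lower mitochondrial protein genes of 8505C was not tested.

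Of 32 genes of mitochondrial RNA processing, stability and decay, 0 differed by at least 1 in any line, among 30, 31 and 29 measured, with medians of 0.04, -0.05 and 0.08, a count that is again near the background. LRPPRC, which with SLIRP protects mitochondrial messenger RNA, had 28.4 and 27.6 FPKM in BHT-101, 19.95 and 15.1 in FTC-133 (-0.38), and 31.9 and 28.97 in 8505C (-0.13). SLIRP had 21.4 and 22.9, 37.97 and 48.05, and 17.5 and 25.01 FPKM, so the partners ran in opposite directions in FTC-133 and 8505C. HSD17B10, a subunit of mitochondrial RNase P, which cuts transfer RNAs out of the precursor, had 77.8 and 83.8, 99.1 and 70.2, and 46.9 and 35.2 FPKM. REXO2, which degrades short RNA, differed by 0.57 in 8505C.

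Of 12 biogenesis regulators, 9 were measured in BHT-101, 11 in FTC-133 and 10 in 8505C. None of those measured differed by at least 1, a count near the background given above. Among those at 5 FPKM or more, the largest difference was in MYC, with 19.1 and 36.2 FPKM in 8505C (0.89). Of 22 aminoacyl-tRNA synthetases of mitochondria, which load transfer RNAs, 21 were measured in each line. In FTC-133, 1 differed by at least 1: GARS, which serves cytosol and mitochondria, with 48.6 and 106 FPKM (1.11). There 2.36% of all measured genes were at least 1 higher, so a count of 1 is near the background. In BHT-101 and 8505C 0 differed by at least 1. The nuclear genes for respiratory chain subunits, partners of the 13 proteins in the same complexes, were above 0 in 66 of 79 measured in BHT-101 (median 0.10), 45 of 80 in FTC-133 (0.02) and 67 of 76 in 8505C (0.32). Genes for mitochondrial ribosomal proteins were above 0 in 53 of 74, 44 of 75 and 69 of 75 (medians 0.10, 0.08 and 0.36). Of all measured genes, 53.3%, 46.1% and 52.8% lay above 0. In 8505C, and to a lesser degree in BHT-101, both nuclear lists thus lay mostly above 0 where all 13 mitochondrial protein genes lay below 0. Examples in 8505C are NDUFB7 of complex I (45.2 and 77.9 FPKM), ATP5F1B of complex V (209 and 341) and the ribosomal protein gene MRPL1 (38.1 and 67.8). In limma, 0 members of these lists passed in the siRNA fit or in the 6-library fit.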

How the data were processed

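The authors deposited FPKM per gene in 6 libraries, 1 per group, with groups taken from the sample titles. Per the submitters' processing notes, the tools include FastQC, Trimmomatic 0.38 and featureCounts 2.0.0, with build GRCh38. The sources used here do not name the aligner, the annotation or the strandedness. Symbols, positions and exon lengths came from GENCODE release 29, which holds 58611 of the 58884 identifiers. Reads were recovered as FPKM times exon length times library total, the total being the value that made reads whole. With release 29 lengths, 67.9% to 69.9% of genes above 0 gave whole reads per library.

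Differences were taken on log2(FPKM + 1), which understates changes of low genes, and called by size at 1. Read ratios have 95% exact (Clopper-Pearson) conditional intervals. limma 3.58.1 (R 4.3.3), checked on simulated data, was fitted across all genes with at least 1 FPKM in 2 of 4 siRNA libraries, 3 of 6 libraries (arms) or 2 of 6 (lines). Arm fits that left out a line asked for 2 of the 4 libraries kept. The pairing is by cell line, from the labels. Nothing in the labels says that cultures were grown separately. All members were named or counted: protein and ribosomal RNA genes, the 4 most abundant and the light-strand transfer RNA genes by name. MT-TL1, MT-TH, MT-TF and members named for a call were chosen after their values were seen. Of the other lists, up to 4 members with the largest difference at 5 FPKM or more could be named, plus TFAM, POLRMT, TFB2M and LRPPRC. The members and lists were chosen with earlier results of these data known. Alternatives were a pseudocount of 0.1, no filter, quantile normalization, rescaling to reads outside the mitochondrial genome, no variance trend, no block and leaving out a line. No column was left unused.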

Additional observations from a re-analysis of the deposited data

Results flagged for a closer look

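The class medians ran in opposite directions between lines when each line was read as lower minus higher CRABP2 arm on log2(FPKM + 1). With siCRABP2 minus siControl, the protein genes had a median of -0.26 (BHT-101) and -0.62 (FTC-133), and with empty vector minus CRABP2 vector they had 0.89 (8505C). For the transfer RNA genes it was -0.33 in BHT-101, -1.11 in FTC-133 and 1.35 in 8505C. All 13 protein genes were on the side of their line's median in each line. The difference between lines was not tested, since each has 1 library per condition and the line, the kind of intervention (siRNA or vector) and the direction of the CRABP2 change cannot be told apart.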

How the results depend on the processing

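Directions of the class values held under the alternatives run. Under quantile normalization the protein medians were -0.11 in BHT-101, -0.82 in FTC-133 and -0.86 in 8505C, the ribosomal RNA means 0.15 in BHT-101 and -0.23 in 8505C, and the transfer RNA median in FTC-133 -1.02. Rescaled to reads outside the mitochondrial genome, the protein medians were -0.27, -0.63 and -0.91, and the ribosomal RNA means 0.24 in FTC-133 and -0.44 in 8505C. With a pseudocount of 0.1 the transfer RNA median was -1.20 in FTC-133 and -1.47 in 8505C, and with no filter -0.89 in FTC-133. The 13 protein genes over reads on protein-coding genes gave shares of 4.97% and 4.22% in BHT-101, 3.02% and 2.00% in FTC-133, and 2.07% and 1.14% in 8505C. With nuclear copies added to the 37 genes they were 5.50% and 4.79%, 3.72% and 2.90%, and 2.75% and 1.64%. For BHT-101 against FTC-133 (8 higher, 1 lower), members called were 0 lower with a pseudocount of 0.1, 2 higher and 0 lower with no filter, 4 higher and 2 lower under quantile normalization, and 2 lower with no variance trend. For BHT-101 against 8505C (20 higher) they were 10 higher with no filter, and 9 higher and 1 lower under quantile normalization. For FTC-133 against 8505C (9 higher) they were 3 higher with no filter, and 5 higher and 1 lower under quantile normalization. In the 6-library arm fit, 2 members were called higher without the FTC-133 libraries (6 of all 12608 genes were) and 0 without either other line. Of these 2, MT-TQ met the filter only through the arm where it was high. The siRNA and arm fits called 0 members under each other setting, no block on cell line included. Among the protein, ribosomal RNA and most abundant transfer RNA genes, quantile normalization turned the sign in BHT-101 against 8505C for MT-CYB (-0.049), MT-RNR1 (-0.30), MT-TC (-0.10) and MT-TP (-0.42), in BHT-101 against FTC-133 for MT-ND4L (-0.48) and MT-TN (-0.28), and in FTC-133 against 8505C for MT-CYB (-0.15) and MT-TC (-0.19). The cause of these changes was not tested. No paired analysis was possible by replicate number because each group has 1 library. Depth limits the transfer RNA genes: up to 17 of 22 had fewer than 20 reads in a library.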
